A study of Mus musculus with 28 samples.

Results

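Pericytes and vascular smooth muscle cells, together called mural cells, wrap the blood vessels of the brain, and 10 genes that mark them were followed here across 3 genotypes. The genes are Rgs5, Pdgfrb, Myl9, Acta2, Tagln, Kcnj8, Abcc9, Vtn, Anpep and Notch3, taken by symbol from a table of 25965 rows for 25900 gene identifiers, in which each filled 1 row. They were taken by name as mural markers, with earlier results of these data known. All 10 passed the filter on low counts, as did 16110 genes in all.

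PolyA RNA of frontal cortex was sequenced from mice of the C57BL/6 background, all aged 20 months, with a knock-in mutation of Tardbp that encodes the Q331K form of the RNA-binding protein TDP-43. The 8 wild-type (WT) libraries had genotype +/+, the 10 heterozygous (HET) libraries Q331K/+ and the 10 homozygous (HOM) libraries Q331K/Q331K. Neither sex, litter nor batch is given, and nothing states whether different libraries mean different mice. The p-values therefore reflect only library-to-library spread, part of which may be technical.

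In brain, pericytes cover capillaries, while smooth muscle cells form the contractile rings of arterioles. Endothelial PDGF-B recruits both through PDGF receptor beta, and Notch3 signalling keeps arterial smooth muscle in its contractile state. Mural cells help to maintain the blood-brain barrier and set vessel diameter. In whole tissue, fewer cells of a type and less RNA per cell cannot be told apart.

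By role, the 10 genes fall into 3 sets. Receptors and signalling genes are Pdgfrb (the PDGF receptor), Notch3 (the Notch receptor of mural cells, chromosome 17, 32120820 to 32166880, minus strand) and Rgs5 (a brake on G-protein signalling, chromosome 1, 169655501 to 169695813). The channel, matrix and surface genes include Kcnj8 and Abcc9, which encode the Kir6.1 pore and the SUR2 regulatory subunit of the vascular ATP-sensitive potassium channel and lie next to each other on the minus strand of chromosome 6 (142564939 to 142571356 and 142587862 to 142702274, with 16505 bases between them). Vtn encodes the adhesive plasma and matrix protein vitronectin (chromosome 11, 78499091 to 78502324), and Anpep the surface peptidase CD13 (chromosome 7, 79821803 to 79848210, minus strand). Contractile genes are Acta2, smooth muscle actin (chromosome 19, 34241090 to 34255336, minus strand), Tagln, the actin-binding transgelin (chromosome 9, 45929628 to 45936058, minus strand), and Myl9, the regulatory myosin light chain (chromosome 2, 156775420 to 156781658). Coordinates are those of the deposited table, on GRCm38.

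The bases upstream of 4 genes are shown because Acta2 and Myl9, and likewise Rgs5 and Abcc9, went up and down together from library to library, as described further on. Serum response factor, with its cofactor myocardin, is known to drive smooth muscle genes through CArG boxes. Each line gives the 250 bases before the RefSeq transcript start (GRCm38.p6), 5′ to 3′ on the gene's strand, with CArG boxes and CArG-like stretches in capitals. Acta2 lies at chr19:34255374-34255623 (minus), Myl9 at chr2:156775214-156775463 (plus), Rgs5 at chr1:169655251-169655500 (plus) and Abcc9 at chr6:142702275-142702524 (minus). The deposited table starts Myl9 slightly upstream of the RefSeq start, so the end of that window lies inside its span there.
Acta2: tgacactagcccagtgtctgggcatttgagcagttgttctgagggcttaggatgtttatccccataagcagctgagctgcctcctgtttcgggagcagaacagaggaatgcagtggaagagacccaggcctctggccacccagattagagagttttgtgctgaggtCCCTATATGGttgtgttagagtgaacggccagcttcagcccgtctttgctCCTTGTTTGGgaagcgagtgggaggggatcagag
Myl9: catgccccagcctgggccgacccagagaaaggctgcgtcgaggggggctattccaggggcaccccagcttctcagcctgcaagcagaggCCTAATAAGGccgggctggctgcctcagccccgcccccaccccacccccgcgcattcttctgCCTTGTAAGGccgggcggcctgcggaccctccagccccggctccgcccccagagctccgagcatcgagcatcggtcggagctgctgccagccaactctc
Rgs5: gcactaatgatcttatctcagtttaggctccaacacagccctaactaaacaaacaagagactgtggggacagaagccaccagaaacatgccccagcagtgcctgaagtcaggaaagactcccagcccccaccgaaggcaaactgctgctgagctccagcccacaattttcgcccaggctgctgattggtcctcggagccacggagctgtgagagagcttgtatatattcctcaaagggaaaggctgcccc
Abcc9: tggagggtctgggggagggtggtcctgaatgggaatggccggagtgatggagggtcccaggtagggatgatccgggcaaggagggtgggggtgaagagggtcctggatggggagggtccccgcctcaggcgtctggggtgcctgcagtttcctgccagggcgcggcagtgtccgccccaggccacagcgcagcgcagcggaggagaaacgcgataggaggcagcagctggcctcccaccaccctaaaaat

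Promoter windows from the RefSeq table were searched for 8 of the 10 genes. Tagln had no window there, and Pdgfrb was left out of the search. A CArG box, with 6 central bases all A or T between CC and GG, was found in 1 of the 8, Myl9, from 161 to 152 bases before the start. Among 32851 windows of the same length 1.47% held one. A CArG-like stretch, with exactly 1 G or C among the central bases, was found in Acta2 (84 to 75 and 34 to 25 bases before the start) and in Myl9 (99 to 90), and in 7.24% of all windows. That looser form was searched after the Acta2 window had been read. Both forms read the same on either strand in the CC and GG ends, so 1 strand was searched. The core of the RBPJ site through which Notch acts, TGGGAA on either strand, was in 21.6% of all windows and in Acta2, Abcc9 and Vtn, and in Acta2 it overlaps the CArG-like stretch nearer the start. These are matches of letters, and binding was not measured in these data.

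Depth ran from 30460746 counts in HOM 2, with HOM 1 next at 32834610, to 74907712 in HET 2. Markers of the tissue were high in every library: 5 excitatory neuron markers summed to between 4985 and 5925 CPM (counts scaled to library size, with TMM factors) and 6 astrocyte markers to between 4275 and 5232. The 20 endothelial markers summed to 523 to 615 CPM in WT, 545 to 719 in HET and 582 to 674 in HOM, with 0 of them absent from all libraries. Skeletal muscle markers, which would show other muscle in the piece, stayed at 7.79 to 13.2 CPM in sum.

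Per length of exon, the 2 most abundant members were Vtn, at 26.7 ± 3.12 RPKM (CPM per kilobase of exon, SD over 28 libraries), and Rgs5, at 26.6 ± 2.1, and their order is not settled, since Vtn was the higher in 12 of 28 libraries. Myl9 followed at 8.61 ± 1.24 and Pdgfrb at 4.16 ± 0.377, each separated from its neighbours by more than the sum of the SDs. Acta2 (2.73 ± 0.865), Tagln (2.26 ± 0.773), Abcc9 (1.77 ± 0.194), Kcnj8 (1.76 ± 0.183) and Notch3 (1.46 ± 0.17) formed a run in which no neighbours differed by more than the sum of their SDs, although Acta2 was above Tagln in 27 libraries. Anpep was lowest, at 0.793 ± 0.249 RPKM. Abcc9 and Kcnj8, the partner subunits, thus stood at nearly the same level per length. The exon lengths are from GENCODE vM21, which may not be the annotation that was counted.

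Mural genes stood higher in HOM than in WT for the receptor Notch3, the G-protein signalling regulator Rgs5, the peptidase Anpep and the myosin light chain Myl9, by 10.5% to 50.4%. These 4 of 10 members passed an adjusted p of 0.05 (edgeR quasi-likelihood test over all genes), 4 higher and 0 lower. Over all genes tested, 7.61% passed in this comparison and 3.9% passed as higher. Acta2 and Tagln were fitted 1.46-fold and 1.42-fold higher without passing, and Kcnj8, Abcc9 and Pdgfrb were fitted within 1.06-fold of WT. The median log2 fold change was 0.20 over the 10 members and 0.01 over all genes, and 9 of 10 members were above 0 against 52.3% of all genes.

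**Figure D1:**
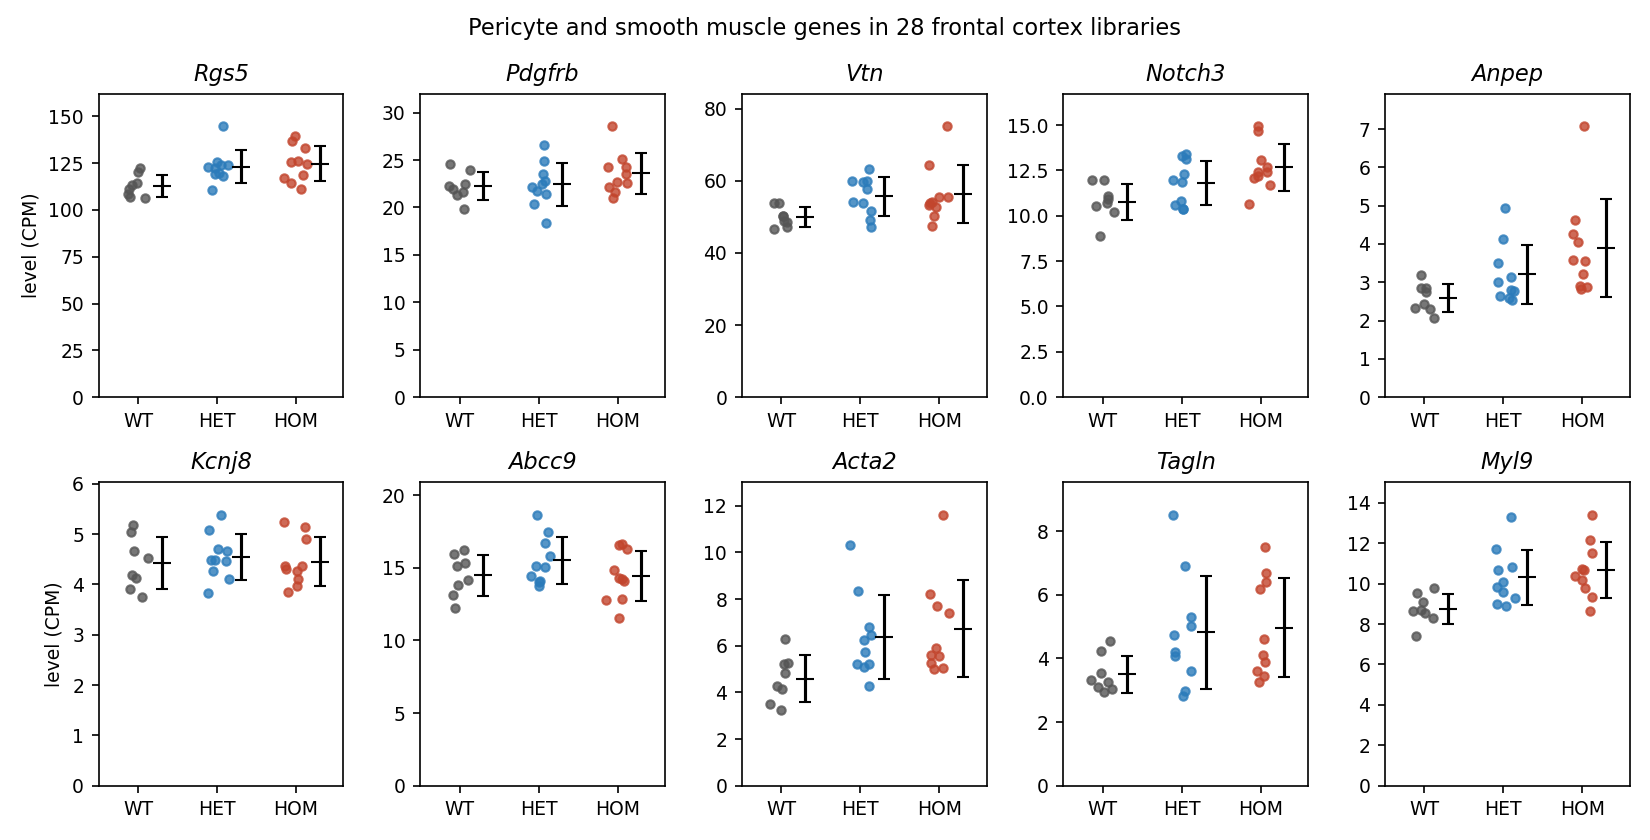
Level of each gene in CPM (vertical axis, from 0) in the 8 WT, 10 HET and 10 HOM libraries (1 point each), with mean and SD as black bars. Myl9 and Notch3 had 8 of 10 HOM points above the highest WT point each, while the points of Kcnj8 covered nearly the same range in the 3 genotypes.

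Notch3 had levels of 8.89, 10.8 and 11.98 CPM in WT (lowest, median, highest library), 10.4, 11.9 and 13.4 in HET and 10.7, 12.4 and 14.9 in HOM. The groups overlapped, with 8 of 10 HOM and 4 of 10 HET libraries above the highest WT library. HOM exceeded WT by 0.23 on the log2 scale (SE 0.07, edgeR adjusted p = 0.0291), from 10.8 ± 0.994 CPM (SD, n = 8) to 12.7 ± 1.29 (n = 10). Exons of Notch3 overlap an antisense transcript, Gm17276, over 6.03% of their length, and the library kit keeps strand, but the strand setting of the counting is not given in the sources used here.

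Rgs5, a pericyte marker of high abundance, stood at 107, 112 and 122 CPM in WT (lowest, median, highest), 111, 123 and 145 in HET and 111, 125 and 139 in HOM. Of the mutant libraries 6 of 10 HOM and 6 of 10 HET lay above every WT library, and 0 lay below the lowest. It rose by 0.14 on the log2 scale in HOM, or 10.5% (SE 0.04, edgeR adjusted p = 0.0435), from 113 ± 5.89 to 125 ± 9.54 CPM, and it passed by little: leaving out 1 library at a time it stayed called in 13 of 28 fits. Pdgfrb, the receptor that defines the lineage (chromosome 18, 61045150 to 61085061), was at 19.8, 22.1 and 24.5 CPM in WT, 18.4, 22.4 and 26.6 in HET and 21.0, 23.1 and 28.6 in HOM. Its groups overlapped almost wholly. HOM stood 0.08 higher on the log2 scale, with a 95% interval from -0.03 to 0.20 (edgeR adjusted p = 0.384).

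Anpep showed the largest fitted change among the members, 0.59 on the log2 scale (SE 0.16, edgeR adjusted p = 0.0227). Levels were 2.07, 2.59 and 3.20 CPM in WT, 2.55, 2.90 and 4.93 in HET and 2.82, 3.58 and 7.08 in HOM. Every HOM library (10 of 10) exceeded the average of WT, and 7 lay above the highest WT library, with HOM 3 far above the rest. Without HOM 3 the log2 fold change was 0.44 (edgeR adjusted p = 0.0369). CD13 is also carried by fibroblasts, and markers of meningeal and perivascular fibroblasts were higher with it: 3 of 17 passed in HOM against WT (Col1a1, Igfbp2 and Pdgfra) and 0 were lower, with a median of 0.55, and their sum was 122 to 196 CPM in WT, 155 to 280 in HET and 150 to 392 in HOM, where HOM 3 was again the highest. Pdgfra, which also marks oligodendrocyte precursors, made up 50.9 CPM of the WT mean of that sum, 159 CPM. Over all genes tested, 3.9% passed as higher in HOM against WT. None of the 17 fibroblast markers was at 0 in all libraries. Their part in the result was not tested.

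Vtn, whose product binds integrins, stood at 46.7, 49.5 and 54.0 CPM in WT, 47.3, 56.0 and 63.2 in HET and 47.6, 54.1 and 75.2 in HOM. Here 5 of 10 HOM and 6 of 10 HET libraries lay above every WT library and HOM 10 was the highest. HOM stood 0.17 higher on the log2 scale, with a 95% interval from 0.04 to 0.31, and it did not pass (edgeR adjusted p = 0.108).

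Kcnj8 and Abcc9 did not pass in HOM. Kcnj8 was at 3.76, 4.35 and 5.18 CPM in WT, 3.83, 4.48 and 5.39 in HET and 3.85, 4.34 and 5.25 in HOM, so that the 3 ranges nearly coincided. Between HOM and WT it differed by 0.01 on the log2 scale, and the 95% interval from -0.14 to 0.16 leaves room for changes of up to 1.115-fold. Abcc9 was at 12.2, 14.6 and 16.2 CPM in WT, 13.7, 15.1 and 18.7 in HET and 11.5, 14.3 and 16.6 in HOM, with a log2 fold change of -0.01 (95% interval -0.15 to 0.14, edgeR adjusted p = 0.967). The ratio of Abcc9 to Kcnj8 CPM was 3.32 ± 0.531 in WT, 3.42 ± 0.263 in HET and 3.25 ± 0.351 in HOM, and the means lay closer together than 1 SD of any genotype.

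**Figure D2:**
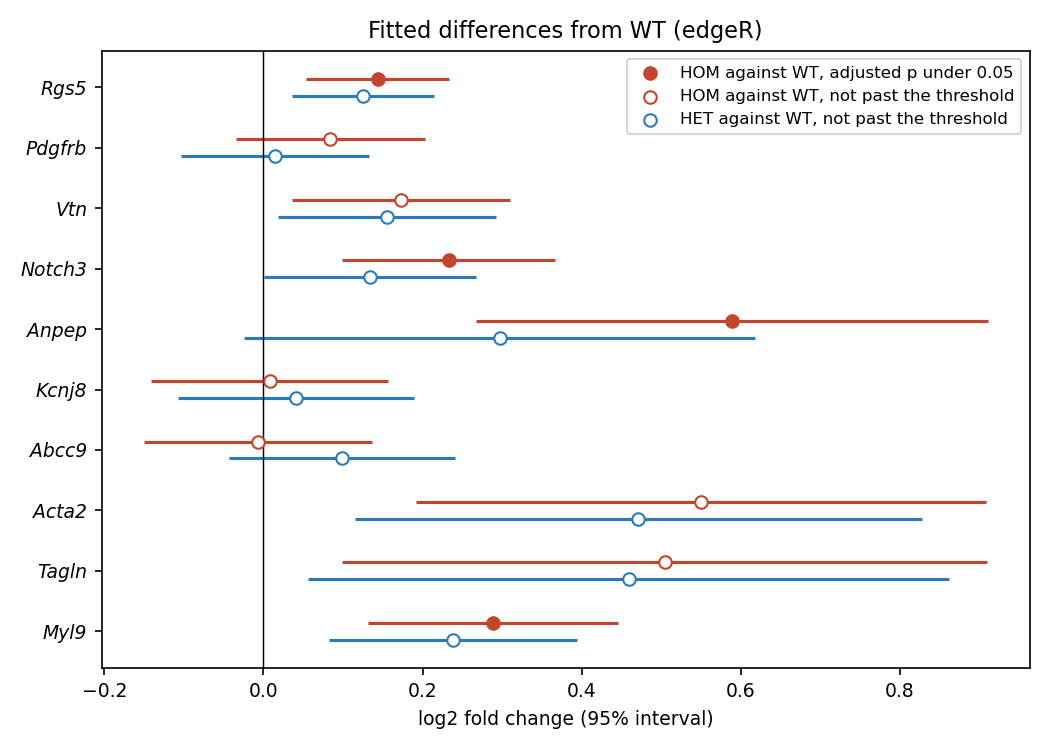
Fitted log2 fold change (horizontal axis) with its 95% interval for HOM against WT (red) and HET against WT (blue), 1 row per gene. Filled points passed an adjusted p of 0.05, which Rgs5, Notch3, Anpep and Myl9 did in HOM, and 0 of 10 did in HET.

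Of the contractile genes, Myl9 rose. It was at 7.42, 8.66 and 9.77 CPM in WT, 8.89, 9.96 and 13.3 in HET and 8.66, 10.5 and 13.4 in HOM. Above the highest WT library lay 8 of 10 HOM and 6 of 10 HET libraries, and 0 lay below the lowest WT library. From 8.75 ± 0.735 CPM (n = 8) to 10.7 ± 1.39 (n = 10), Myl9 rose by 0.29 on the log2 scale (SE 0.08, edgeR adjusted p = 0.0224), and it passed in 27 of 28 fits that left out 1 library.

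Acta2 was at 3.24, 4.55 and 6.28 CPM in WT, 4.27, 5.98 and 10.3 in HET and 5.00, 5.74 and 11.6 in HOM. The WT mean of 4.59 was exceeded in 10 of 10 HOM libraries, the WT maximum in 4 of 10. HOM stood 0.55 higher on the log2 scale (SE 0.17), a fitted change close to that of Anpep, and its edgeR adjusted p of 0.051 just missed the threshold. Acta2 was called by DESeq2 (adjusted p = 0.0286) and not by limma voom (adjusted p = 0.0783) or without WT 6 and HOM 3 (edgeR adjusted p = 0.153), and it passed in 7 of 28 fits that left out 1 library. Its adjusted p ran from 0.0286 to 0.153 over the 38 alternatives. Tagln was at 2.93, 3.29 and 4.55 CPM in WT, 2.83, 4.46 and 8.53 in HET and 3.27, 4.36 and 7.501 in HOM. At 0.50 on the log2 scale (SE 0.20) it did not pass (edgeR adjusted p = 0.113). The spread was wider among the mutant libraries, which was not tested: the coefficient of variation of Acta2 was 21.9% in WT, 28.1% in HET and 30.9% in HOM, and that of Tagln 16.9%, 36.7% and 31.5%. Exons of Tagln overlap the antisense transcript Gm48529 over 62.4% of their length and Pcsk7, on the other strand, over 5.43%, so its counts are uncertain to that extent.

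These 3 genes were high in the same libraries. Of the 6 libraries with the highest Acta2, Tagln and Myl9, 5 were the same for all 3 genes: HET 4, HET 7, HOM 2, HOM 3 and HOM 10. HET 7 had 2.25 times the WT mean of Acta2 and 2.44 times that of Tagln, and HOM 10 had 2.53 and 2.14 times. In WT 6, at the other end, Acta2 was at 0.706 of the WT mean and Myl9 at 0.848.

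**Figure D3:**
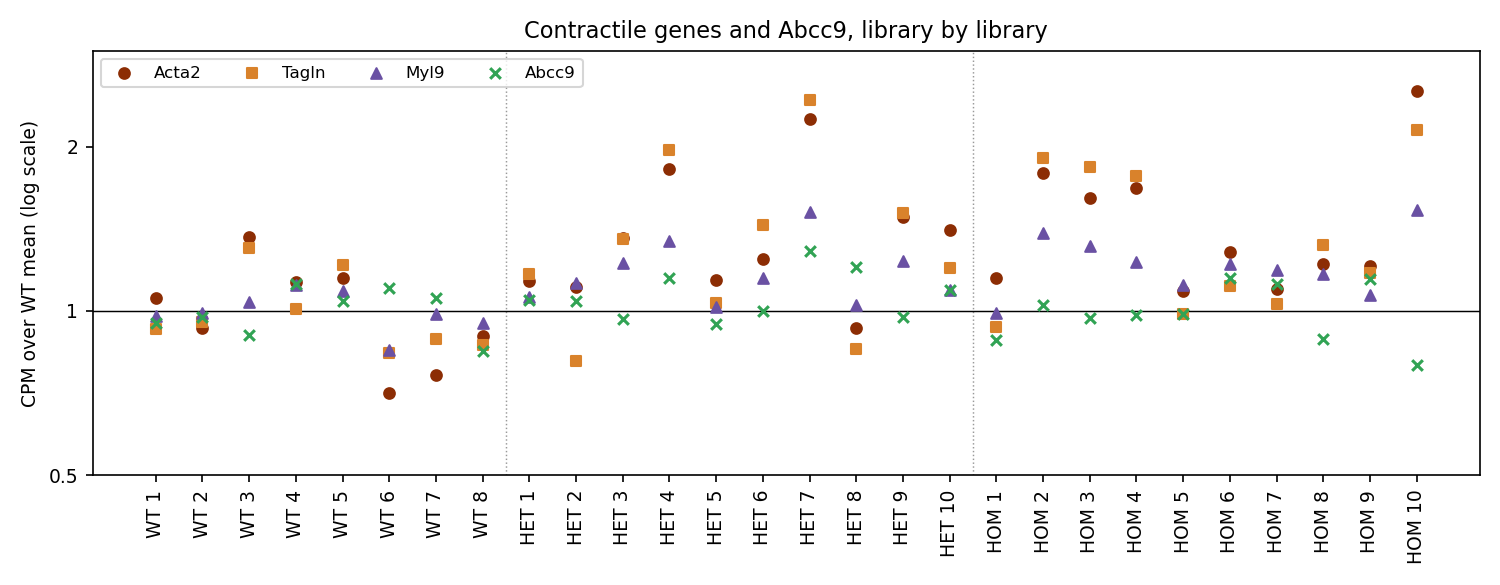
CPM of Acta2, Tagln, Myl9 and Abcc9 over the WT mean of that gene (log2-spaced vertical axis) in each of the 28 libraries, with dotted lines between genotypes. Acta2, Tagln and Myl9 are all above the WT mean in every mutant library but HET 2, HET 8, HOM 1 and HOM 5. The same holds in WT 3, WT 4 and WT 5. They lie farthest above it in HET 7 and HOM 10, while Abcc9 was 1.29 in HET 7 and 0.797 in HOM 10.

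The members did not vary as 1 block. Pairs were compared over the 28 libraries on log2 CPM after the genotype mean was subtracted, with permutation within genotypes and Benjamini-Hochberg adjustment over 45 pairs. Acta2 and Tagln gave a Pearson r of 0.91 (Spearman 0.91, both permutation p = 1e-05, the smallest that the permutations can give), and 0.87 in WT, 0.94 in HET and 0.93 in HOM taken alone. Acta2 with Myl9 gave 0.88 and Tagln with Myl9 0.85, and without the 2 farthest libraries, HET 7 and HOM 10, these 3 values were 0.88, 0.80 and 0.78. A second pair was Rgs5 and Abcc9, with a Pearson r of 0.78 (Spearman 0.75, permutation p = 1e-05 and 2e-05), and 0.71 without HET 7 and HOM 9. Pdgfrb and Vtn were a further pair, at 0.66 (Spearman 0.58, adjusted permutation p = 0.00396 and 0.0196), which was 0.46 without HET 5 and HOM 10. Vtn also went with Acta2 (0.64), Myl9 (0.64) and Tagln (0.54, adjusted permutation p of Pearson's r = 0.0048, 0.00546 and 0.0333). Pdgfrb with Notch3 gave 0.54 and Rgs5 with Kcnj8 0.51 (adjusted permutation p of Pearson's r = 0.0253 and 0.0333). By Spearman, Tagln with Vtn, Pdgfrb with Notch3 and Rgs5 with Kcnj8 did not pass (adjusted permutation p = 0.0906, 0.179 and 0.092). Kcnj8 and Abcc9, the subunits of 1 channel and neighbours on the chromosome, gave 0.37 (Spearman 0.36, adjusted permutation p = 0.183 and 0.184), with -0.26 in WT, 0.70 in HET and 0.55 in HOM. Acta2 and Rgs5, a smooth muscle marker and a pericyte marker, gave 0.07, with -0.35 in WT, 0.58 in HET and -0.18 in HOM. Of the 45 pairs 10 had an adjusted permutation p under 0.05 for Pearson's r. Acta2, Tagln, Kcnj8 and Anpep rest on 106 to 655 counts per library.

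**Figure D4:**
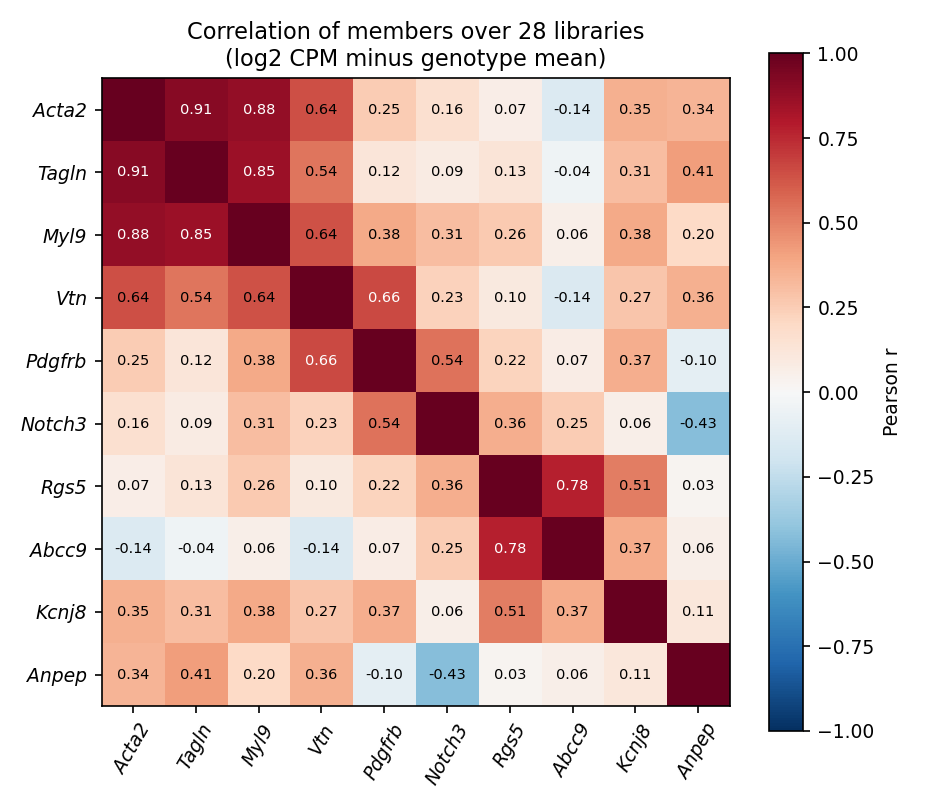
Pearson r between members over 28 libraries, on log2 CPM minus the genotype mean, as colour from -1 to 1 with the value in each cell. Acta2, Tagln and Myl9 form a corner of 0.85 to 0.91, Rgs5 and Abcc9 share 0.78, and Anpep and Notch3 have the lowest value, -0.43. That lowest value did not pass (adjusted permutation p = 0.124) and was -0.19 without HET 10 and HOM 3.

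The genes most like each member over the same 28 libraries are given as a description. Myh11, smooth muscle myosin, was among the nearest 3 of Myl9 (r = 0.87), Acta2 (0.86) and Tagln (0.82), and the other nearest genes of these 3 were each other. Anpep was nearest to Mrc2, a collagen receptor (0.92), Thsd4 (0.87) and Tsku (0.87). Notch3 was nearest to Capn6 (0.81), Plekha5 (0.79) and Trub1 (0.79), and Vtn to Cdk2 (0.78), Sqrdl (0.73) and Ephx1 (0.73). Pdgfrb was nearest to Rgp1 (0.86), Cc2d2a (0.83) and Samd3 (0.83), which are not mural markers, and Kcnj8 to Limch1 (0.68), Ptplb (0.68) and Etfa (0.67). Rgs5 was nearest to Abcc9, Spag9 (0.73) and Msi2 (0.72), and Abcc9 to Rgs5 (0.78), AC122428.1 (0.75) and RP24-538B17.1 (0.68). Apart from Myh11 and the members, none of these nearest genes is in the lists of mural, pathway or cell type genes used here.

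The summed markers of fibroblasts and of endothelium were set beside each member. Over 20 relations tested in the same way (10 members, 2 marker sums), Anpep had a Pearson r of 0.83 with the summed fibroblast markers (Spearman 0.85, adjusted permutation p = 0.0002 and 0.0004), 0.93 in WT, 0.62 in HET and 0.91 in HOM alone, and 0.81 without HET 4 and HOM 3. Tagln gave 0.61 and Acta2 0.53 (Spearman 0.67 and 0.65, adjusted permutation p of Pearson's r = 0.00404 and 0.0189). Vtn gave 0.54 and Myl9 0.42 (adjusted permutation p of Pearson's r = 0.0317 and 0.0757), and Rgs5, Pdgfrb, Kcnj8 and Abcc9 lay between -0.07 and 0.09. Notch3 was at -0.34. With the summed endothelial markers Kcnj8 gave the highest value, 0.67 (Spearman 0.73, adjusted permutation p = 0.0008 and 0.0004), and 0.70 without HET 4 and HET 5. Tagln gave 0.64, Myl9 0.62, Acta2 0.58, Vtn 0.48 and Rgs5 0.46 with them (adjusted permutation p of Pearson's r = 0.00404, 0.00404, 0.0046, 0.0216 and 0.0313), and the other members lay between 0.10 and 0.35 without passing. Between HOM and WT, 7.61% of all genes tested passed, 3.9% as higher. Endothelial markers were higher in HOM, with 5 of 20 past the threshold, 0 lower and a median of 0.15, as were 7 of 10 microglia markers (median 0.19), while 1 of 7 perivascular macrophage markers passed (median 0.54). Of 6 oligodendrocyte precursor markers 4 were higher (Pdgfra, Ptprz1, Gpr17 and Matn4, list median 0.21), and their sum was 409.6 to 465.5 CPM in WT and 442.7 to 505.2 in HOM, with 9 of 10 HOM libraries above the highest WT library. Of 6 astrocyte markers 2 were higher (Aqp4 and Gja1, list median 0.16). Their part in the differences of the mural genes was not tested.

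**Figure D5:**
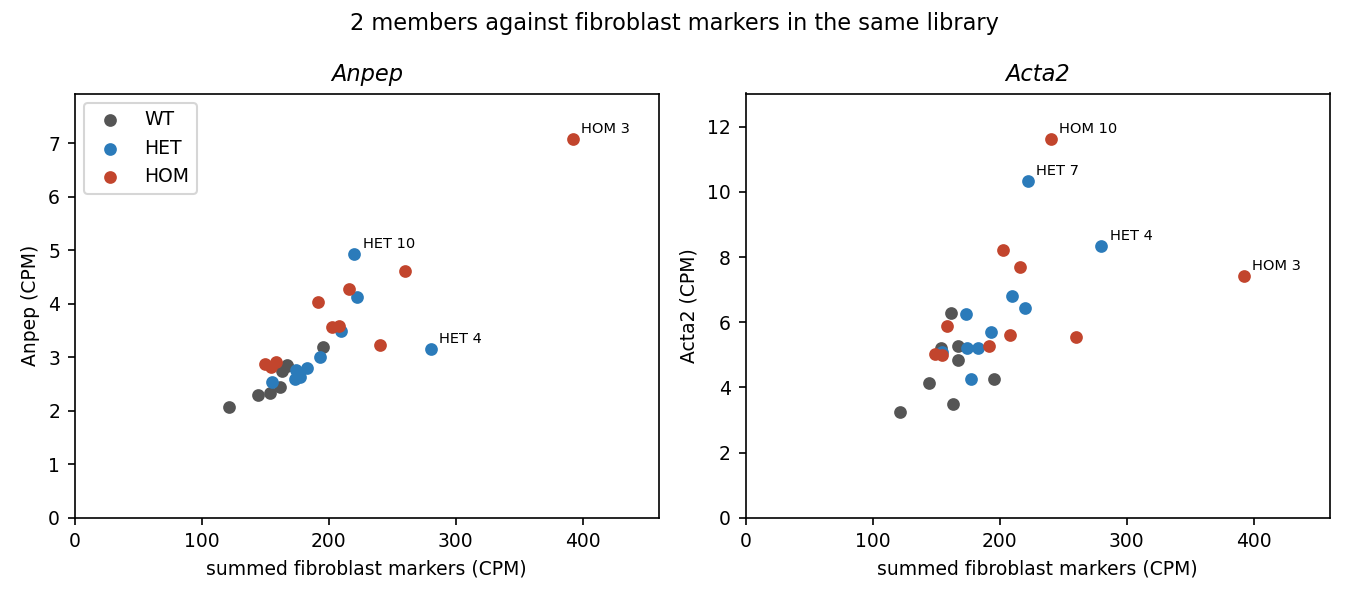
Anpep (left) and Acta2 (right) in CPM against the summed CPM of 17 fibroblast markers in the same library, 1 point per library, coloured by genotype. Pdgfra, also an oligodendrocyte precursor marker, is 1 of the 17. HOM 3 has the highest marker sum (392 CPM) and the highest Anpep (7.08 CPM), while Acta2 peaks in HOM 10 and HET 7.

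With 1 mutant allele all 10 members were fitted above WT, and none passed. HET and HOM were set against the same 8 WT libraries, so their values stand side by side without a test of likeness. Acta2 had a log2 fold change of 0.47 in HET and 0.55 in HOM, Tagln 0.46 and 0.50, Myl9 0.24 and 0.29, Vtn 0.16 and 0.17, Rgs5 0.13 and 0.14, Notch3 0.13 and 0.23, Anpep 0.30 and 0.59, and Abcc9 0.10 and -0.01. For HET against WT, 0 of 10 members were called, where 0.0% of all genes were, and 6 of 10 had an unadjusted p under 0.05 against 9.6% of all genes (edgeR). DESeq2 and limma voom also called 0 of 10 members. The lowest adjusted p was 0.406, for Myl9 and Rgs5.

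HOM and HET did not differ in any member past the threshold, with 0 of 10 called by edgeR, DESeq2 or limma voom and 0 of 10 at an unadjusted p under 0.05, where 0.0372% of all genes were called by edgeR. Acta2 differed by 0.08 on the log2 scale (95% interval -0.25 to 0.41), Rgs5 by 0.02 (-0.07 to 0.10) and Myl9 by 0.05 (-0.10 to 0.20). The largest difference was in Anpep, 0.29 higher in HOM with an interval from -0.01 to 0.59 (edgeR adjusted p = 0.593).

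Per mutant allele, 3 of 10 members rose: Anpep by 0.29 on the log2 scale, Myl9 by 0.14 and Notch3 by 0.12 (edgeR slope, adjusted p = 0.0188, 0.027 and 0.0263). The slope takes each allele as an equal step, which was not tested. The fitted steps, WT to HET and HET to HOM, were 0.30 and 0.29 for Anpep and 0.13 and 0.10 for Notch3. For Myl9 they were 0.24 and 0.05. Over all genes 7.78% passed and 3.99% passed as rising. Rgs5, at 0.07 per allele, had an edgeR adjusted p of 0.0508. The count was 1 without HOM 10 and 5 without HET 7 or HOM 5. The slope shares its WT and HOM libraries with their direct comparison.

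Further genes of the same cells and pathways, from lists drawn up with earlier results of these data known, were read in the same fit. Over all genes tested, 7.61% passed in HOM against WT and 3.9% passed as higher. Among 21 other pericyte genes 2 rose in HOM against WT, 0 fell and the median was 0.15: Higd1b, a marker of brain pericytes (0.30, edgeR adjusted p = 0.0258), and Cd248, the surface protein endosialin (0.28, edgeR adjusted p = 0.0258). Cspg4, the NG2 proteoglycan of pericytes and oligodendrocyte precursors, stood at 0.20 (edgeR adjusted p = 0.0583), and Rgs4, abundant in cortical neurons, at -0.02. Among 27 other contractile genes tested 3 rose and 2 fell, with a median of 0.17. Mylk, the kinase that phosphorylates Myl9, rose by 0.22, the actin-binding Cald1 by 0.21 and the endothelin receptor gene Ednra by 0.23, while Gucy1a3 and Gucy1b3, the subunits of the nitric oxide receptor, which neurons also express, had log2 fold changes of -0.16 and -0.12. Tpm1, the most abundant of the list, encodes a tropomyosin also made in neurons and was at 0.02. Myh11, the gene outside the members nearest in pattern to Acta2, Tagln and Myl9, stood at 0.26 (edgeR adjusted p = 0.339).

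Beside the counts that follow, the share of all genes that passed in HOM against WT was 7.61%, with 3.9% as higher. Of 5 other PDGF ligand and receptor genes 1 passed, Pdgfra, at 0.21 (edgeR adjusted p = 0.00233), which marks oligodendrocyte precursors and fibroblasts and stands in the fibroblast list too. Pdgfb, the ligand of Pdgfrb, stood at 28.6 ± 2.99 CPM in WT and 30.8 ± 2.14 in HOM (log2 fold change 0.11, edgeR adjusted p = 0.3). In the Notch list 1 of 15 passed, the receptor gene Notch2 (0.22, edgeR adjusted p = 0.0225), and the median was -0.06. Hey1, a Notch target, was at -0.07 and Rbpj, the nuclear partner of Notch, at -0.05, and neither passed. Kcnj11 and Abcc8, the other pore and regulatory subunits of this channel family, were at -0.06 and -0.03 and 0 of 2 passed. Among 9 receptors and partners of vitronectin Itgb5 rose by 0.27 (42.6 ± 2.52 to 51.4 ± 1.99 CPM, edgeR adjusted p = 9e-05) and 0 others passed, with a median of 0.10, Itgav at 0.04 and Itgb8 at -0.04. Of 6 tested RGS genes of the same class as Rgs5, 0 passed by edgeR, with a median of -0.02, and the most abundant, Rgs8 and Rgs2, were at -0.05 and 0.00.

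The count of members called in HOM against WT rested on single libraries. It was 4 with all libraries, 1 without WT 6 (Notch3), and 2 without WT 1, WT 2 or WT 8 (Anpep and Myl9 each time). Without the pair WT 6 and HOM 3 it was also 1, Notch3. Without HOM 1 and HOM 2, the shallowest libraries, it was 4.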

How the data were processed

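Gene-level counts of 28 libraries were used as deposited by the authors, in 1 table of raw read counts per gene. Trim Galore 0.4.3, HISAT2 2.0.5 and GRCm38 are named in the submitters' processing notes. How reads were assigned to genes, with which annotation and strand option, is not given in the sources used here. Genes were filtered with filterByExpr, scaled by TMM and fitted in 1 model of genotype over all libraries with edgeR 4.0.16 (quasi-likelihood test, R 4.3.3), two-sided, with Benjamini-Hochberg adjustment over 16110 genes and a threshold of 0.05. The slope used the number of mutant alleles. DESeq2 1.42.0 and limma 3.58.1 (voom) were alternatives, and the fit was tested on simulated data. Among identifiers, 57 fill several rows, none of them a member. No library pair was alike within sampling noise (lowest chi-square per degree of freedom 6.12 over 378 pairs). Promoter windows are from RefSeq.

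The members and lists were chosen with earlier results of these data known. Named genes were the 10 members, from each list up to 4 genes past the threshold by smallest p and the 2 most abundant, and for each member the 3 most correlated genes with a mean of at least 1 CPM.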

Additional observations from a re-analysis of the deposited data

Results flagged for a closer look

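The levels of the 10 members and the total counts were each examined within each genotype, which made 33 sets of values. In 3 of the 33, 1 library lay apart from the other libraries of its genotype, and chance sets apart about 5% of such sets. The sets share libraries, so they are not independent. HET 7 had 144.8 CPM of Rgs5, where the nearest HET library had 125.7. HOM 10 had 11.62 CPM of Acta2, where the nearest HOM library had 8.215. HOM 3 had 7.079 CPM of Anpep, where the nearest HOM library had 4.615.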

How the results depend on the processing

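With HOM against WT, 4 members were called, 2 with the replicate block (numbers 1 to 8), 2 in the same libraries without it, 1 without the pair WT 6 and HOM 3, and 1 to 5 leaving out 1 library. The 2 were Myl9 and Rgs5 with the block, but Anpep and Myl9 without it. The slope called 3 members, 5 by DESeq2, 1 without that pair and 1 (without HOM 10) to 5 (without HET 7 or HOM 5) leaving out 1 library. Over all genes, HOM against WT gave 509 without that pair and 595 (without WT 6) to 1345 leaving out 1 library, and the slope 608 and 681 to 1401, from 1226 and 1254. HET against WT gave 12 by DESeq2, 14 by limma voom, 1 with a 1 CPM filter, 4 with only the 2 groups, 2 without the 2 shallowest libraries and 0 to 3 leaving out 1. HOM against HET gave 40 by DESeq2, 53 by limma voom, 14 with the replicate block, 17 in the same libraries without it and 3 to 15 leaving out 1, from 6. Same-numbered libraries correlated at -0.158 to 0.183 (median 0.0223), 5 of 24 pairs were over 0.1 and 3 of 24 libraries correlated best with their own number, so the numbers were not read as pairing. The fits without the 2 shallowest libraries and of numbers 1 to 8 without a block were chosen after seeing the data. The cause of these moves was not tested.

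Signs turned only for values near 0 that were not called. In the order limma voom, replicate block, without the pair, and numbers 1 to 8 without a block, where it turned: Kcnj8 in HOM against WT -0.00833, -0.0266, -0.00193 and -0.0234, and Vtn in HOM against HET -0.0047, -0.0203, -0.00737 and -0.0219. With the block, without the pair and without a block, Tagln in HOM against HET gave -0.0019, -0.00576 and -0.0242, and the Kcnj8 slope -0.013, -0.00222 and -0.0114. Rgs5 in HOM against HET gave -0.0116 with and -0.0113 without the block, and Acta2 -0.0138 without it. Abcc9 in HOM against WT gave 0.0181 by limma voom, 0.016 without the pair and 0.00681 without the 2 shallowest, and its slope 0.00895, 0.00292 and 0.00344, with 8.5e-05 under the block and 0.00023 without it. Pdgfrb in HET against WT gave -0.00291 by limma voom. Leaving out 1 library, the ranges were -0.0405 to 0.0222 (Abcc9) and -0.0273 to 0.0412 (Kcnj8) in HOM against WT, -0.0181 to 0.0435 (Pdgfrb) in HET against WT, -0.0469 to 0.182 (Acta2), -0.00167 to 0.0463 (Rgs5), -0.0418 to 0.176 (Tagln) and -0.0384 to 0.0402 (Vtn) in HOM against HET, and -0.0258 to 0.00948 (Abcc9) and -0.0149 to 0.0172 (Kcnj8) for the slope.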
